A study of Mus musculus with 6 samples.

Results

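The genes described here are 54 genes of the G2 phase and of mitosis, chosen by name: cyclins and their kinase, mitotic kinases, kinetochore proteins, motors, spindle and cytokinesis factors, and regulators of mitotic exit. Of the 32544 genes in the deposited table, 51 carried these symbols and 3 more (Sgo1, Sgo2a and Knl1) were found under the older symbols Sgol1, Sgol2a and Casc5, so that all 54 had values. The libraries measured mRNA of microdissected proximal tubules of C57Bl/6 mice, taken from the S2 and S3 segments, which follow the first convoluted stretch, and each kidney gave several tubules that were pooled. The AA group (3 libraries) was collected 24 h after a single injection of aristolochic acid I at 3 mg/kg, and the DMSO group (3 libraries) 24 h after an injection of the solvent, with the same dose figure stated. Aristolochic acid I comes from Aristolochia plants, harms the kidney, and forms DNA adducts once cellular enzymes have reduced it. The study calls the animals of both groups control mice; it names no allele or age, nor whether each library is a different animal. P-values therefore measure only the spread between these libraries, which may be technical.

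A cell enters mitosis when cyclin B binds the kinase CDK1 and the CDC25 phosphatases activate the pair. The mitotic kinases, the kinetochore and the kinesin motors then build the spindle and attach chromosomes, and the anaphase promoting complex ends mitosis by marking cyclin B and securin for destruction. Most of these genes are transcribed late in the cycle by MuvB complexes with B-MYB and FOXM1, and are held silent in resting cells by the DREAM complex. Cells of the adult proximal tubule are mostly in a resting state and can re-enter the cycle after injury, and p53, acting through the CDK inhibitor p21, returns these genes to repression.

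Library totals ran from 13304877 to 17815915 reads in AA and from 15958557 to 31136251 reads in DMSO, so that 1 read stood for 0.0561 to 0.0752 CPM (read counts scaled so that each library has the same total) in AA and 0.0321 to 0.0627 CPM in DMSO. Read counts given below are not scaled for this, so the same level gives more summed reads in DMSO. The mitochondrial share of reads was 4.82% to 8.72% in AA and 4.005% to 10.1% in DMSO. For 40 of 14311 tested genes, 0 of them members, DMSO replicates 1 and 2 stood apart from the other 4 libraries by more than 2 on the log2 scale. Summed over 8 markers of the proximal tubule, AA libraries held 9759 to 12675 CPM and DMSO libraries 19474 to 24423 CPM. Lrp2 and Slc27a2 weighed most in these sums. By the test described below, 3 of the 8 were lower, 1 (Slc5a2) was higher and 4 did not pass. Of all tested genes 8.66% were lower and 22.3% higher. In pooled tubules, fewer cells of a type and less RNA per cell cannot be told apart.

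Most of the 54 genes were low in AA and DMSO tubules alike. Averaged over the 2 groups, the median member stood at 1.58 CPM, against 21.3 CPM for the median tested gene, without regard to gene length. A gene was tested where at least 3 libraries reached 1 CPM, which 36 members did and 18 did not. Among the 18 untested members the group means were 0.0251 to 1.29 CPM in AA and 0.0140 to 0.829 CPM in DMSO, and 7 of the 54 members had 0 reads in at least 1 library. Of the 36 tested members, 0 passed through libraries of only a single group.

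**Figure D1:**
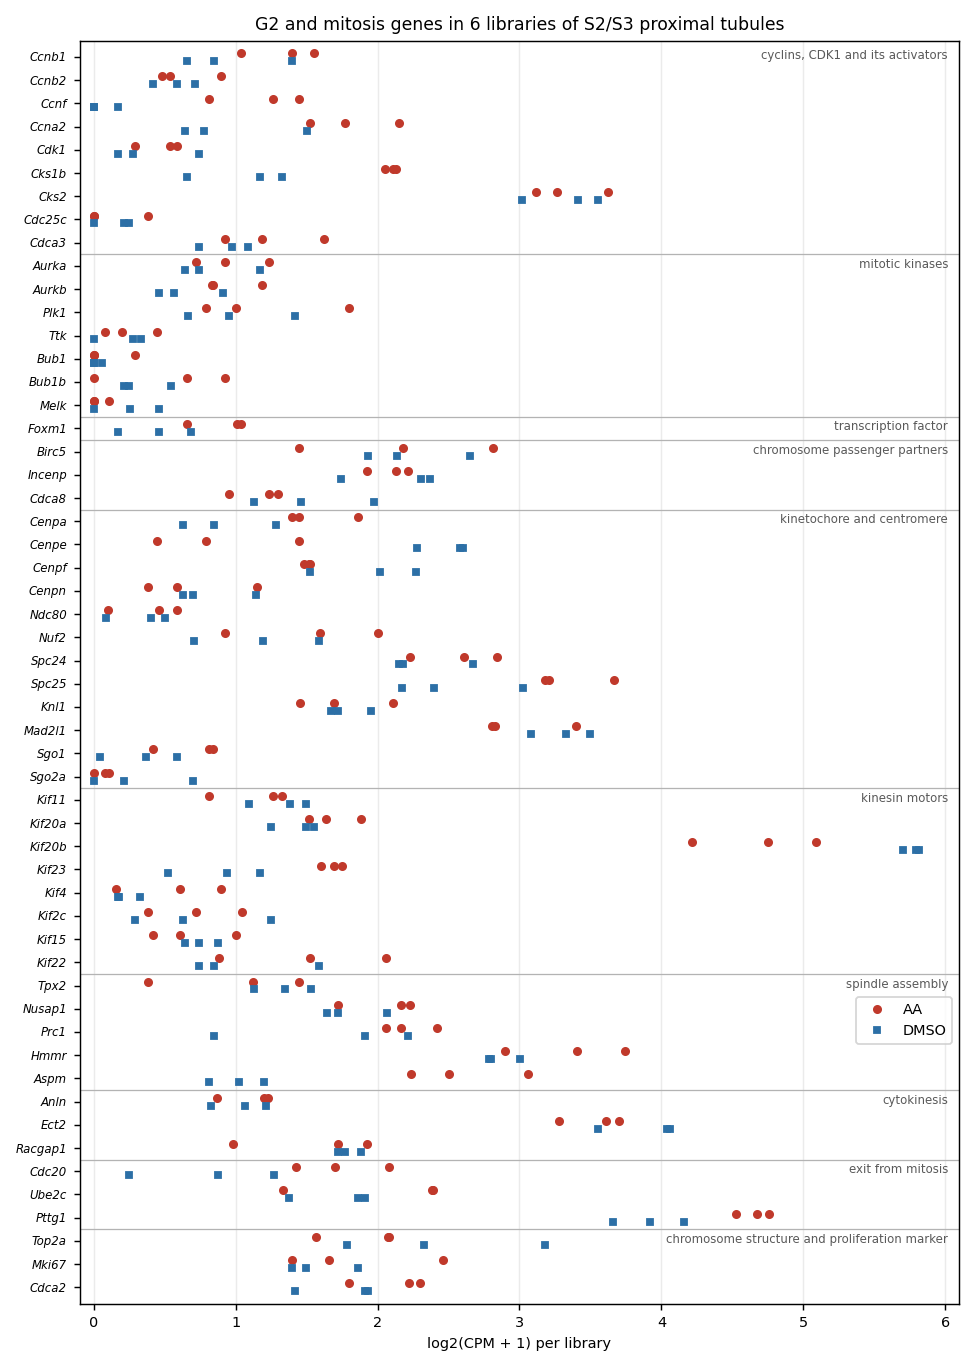
Level of each of the 54 genes in each library, as log2(CPM + 1), grouped by role, with AA libraries as circles above and DMSO libraries as squares below. Most genes lie near the left edge in both groups, and Kif20b, with 17.6 to 33.1 CPM in AA and 51.0 to 55.4 CPM in DMSO, stands far to the right.

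In limma's moderated test of AA over DMSO on log2(CPM + 1), with Benjamini-Hochberg adjustment over all 14311 tested genes and a threshold of 0.05, 6 of the 36 tested members were higher in AA, 2 were lower and 28 did not pass. The 6 are 16.7% of the tested members, while 22.3% of all tested genes were higher. The 2 are 5.56% of them, while 8.66% of all tested genes were lower. Both shares were below those of all genes, so the counts do not set the members apart. At means under 10 CPM, where 33 tested members lie, 5 members were higher and 1 was lower, against 19.8% and 4.89% of the 4806 tested genes of that range. The median log2 fold change was 0.24 over the tested members and 0.21 over all tested genes. With library medians equalised these medians were -0.02 and -0.05, and 1 member was higher and 2 were lower, beside 11.2% and 16.9% of all genes. The count of 6 fell to 1 without AA replicate 2, to 2 without AA replicate 3, and to 3 without AA replicate 1 or DMSO replicate 3, whereas the count of 2 was the same in every alternative. The groups did not overlap for 46.4% of all tested genes. AA values lay above every DMSO value for 8 tested members (22.2%, against 33.4% of all tested genes) and below every DMSO value for 3 (8.33%, against 13.0%).

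The genes that passed came from different parts of the mitotic machinery. Higher in AA were Aspm (spindle poles), Cks1b (a CDK subunit), Cdc20 and Pttg1 (mitotic exit), Spc25 (kinetochore) and Kif23 (central spindle). Lower in AA were Cenpe and Kif20b, which both encode kinesin motors. Aspm, Cenpe and Kif20b were called in each of the 16 alternative settings tried, whereas the other 5 calls were lost in some of them. In AA, Aspm averaged 5.23 ± 1.88 CPM and Cenpe 0.939 ± 0.708 CPM, against 1.03 ± 0.273 and 4.63 ± 0.681 CPM in DMSO (SD, n = 3 each).

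**Figure D2:**
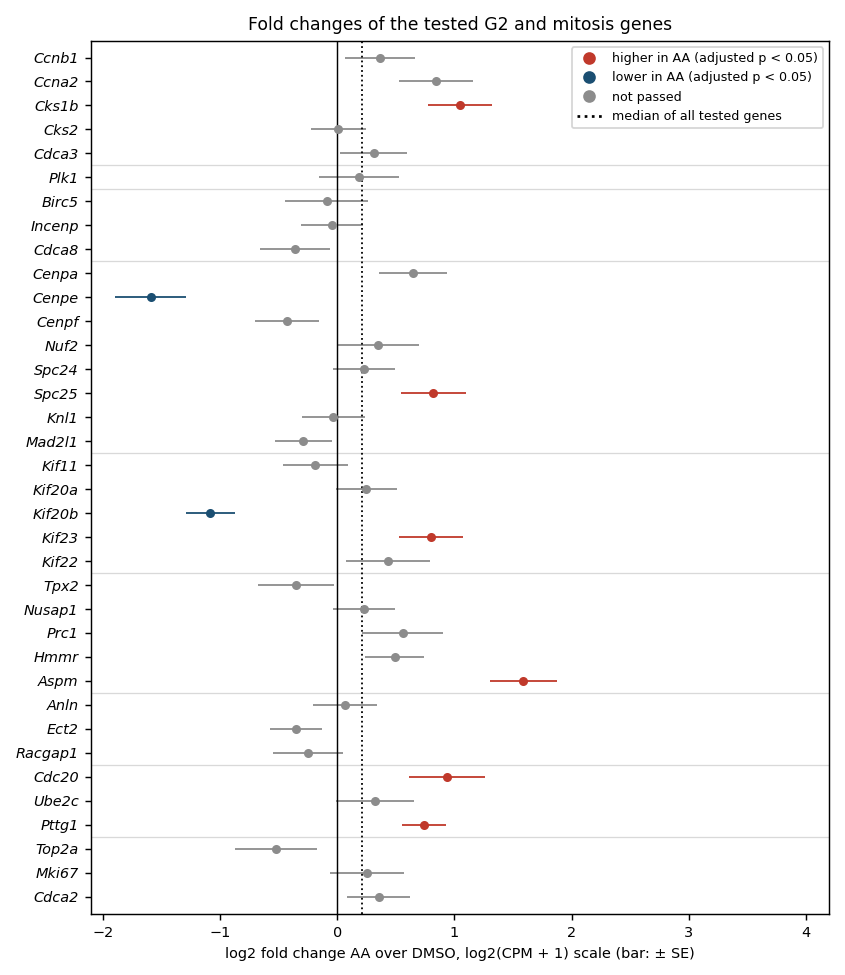
Log2 fold change of AA over DMSO on the log2(CPM + 1) scale for the 36 tested genes in the order of their roles, with bars of ± 1 moderated SE. The dotted line is the median of all tested genes at 0.21. Aspm at 1.59, Cenpe at -1.59 and Kif20b at -1.08 lie farthest from 0.

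Promoters of genes that passed, with those of Ccnb2 and Cdk1 as core genes of entry into mitosis, are shown because late cell cycle genes are known for 2 promoter elements. These are the CHR (cell cycle genes homology region), bound by MuvB complexes, and the CCAAT box, bound by NF-Y. Each sequence is the 120 bases before the RefSeq start (GRCm38.p6), 5′ to 3′ on the strand of the gene, in the order listed here. On the plus strand they are Aspm at chr1:139454653-139454772, Cenpe at chr3:135212443-135212562 and Kif20b at chr19:34922238-34922357. On the minus strand they are Cdc20 at chr4:118437344-118437463, Spc25 at chr2:69206214-69206333, Kif23 at chr9:61946800-61946919, Ccnb2 at chr9:70421555-70421674 and Cdk1 at chr10:69352913-69353032. The windows of Cks1b, Pttg1 and Ccnb1 run 84 to 120 bases into longer GENCODE genes and are not printed. Capitals mark TTTGAA or its reverse complement TTCAAA and TTTAAA (the CHR forms searched), and CCAAT or its reverse complement ATTGG.
Aspm: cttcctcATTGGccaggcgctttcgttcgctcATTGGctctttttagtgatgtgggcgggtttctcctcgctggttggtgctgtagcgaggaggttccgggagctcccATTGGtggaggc
Cenpe: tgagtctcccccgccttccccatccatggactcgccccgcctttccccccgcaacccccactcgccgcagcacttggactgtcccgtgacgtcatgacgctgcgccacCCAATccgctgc
Kif20b: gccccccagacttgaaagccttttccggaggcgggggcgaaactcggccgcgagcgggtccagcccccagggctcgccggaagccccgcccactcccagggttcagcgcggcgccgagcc
Cdc20: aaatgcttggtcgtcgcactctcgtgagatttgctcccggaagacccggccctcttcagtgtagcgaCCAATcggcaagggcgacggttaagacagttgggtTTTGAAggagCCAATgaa
Spc25: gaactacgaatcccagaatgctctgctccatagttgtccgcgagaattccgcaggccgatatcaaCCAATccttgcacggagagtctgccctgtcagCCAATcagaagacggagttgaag
Kif23: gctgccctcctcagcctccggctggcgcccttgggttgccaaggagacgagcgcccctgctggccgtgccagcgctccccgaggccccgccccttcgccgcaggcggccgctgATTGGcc
Ccnb2: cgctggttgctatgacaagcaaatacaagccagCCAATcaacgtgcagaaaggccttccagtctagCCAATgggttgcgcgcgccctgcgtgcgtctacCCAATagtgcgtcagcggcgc
Cdk1: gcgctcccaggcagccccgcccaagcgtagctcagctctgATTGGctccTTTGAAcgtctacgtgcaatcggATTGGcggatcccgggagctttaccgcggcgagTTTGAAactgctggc

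RefSeq promoters were matched for 45 of the 54 members. Within these 120 bases a CHR form was found in 16 of the 45 (35.6%), against 11.9% of 27025 promoters in the table, and a CCAAT box in 30 (66.7%), against 22.1%. Among the 8 genes that passed, a CHR form was found in 2, Cks1b and Cdc20, and a CCAAT box in 6, all but Kif20b and Pttg1. These counts include the windows of Cks1b and Pttg1, which were not printed. Inside the GENCODE gene lie 92 of the 120 Cks1b bases, with every Cks1b match, and all 120 Pttg1 bases. For Cks1b and Pttg1 the window is thus mostly or wholly not upstream of that start. Of the 2 genes that were lower in AA, Kif20b had neither motif in this window and Cenpe had a single CCAAT box. That box lies in the 26 bases of the Cenpe window that are inside the GENCODE gene. Likewise inside are 9 bases of the Cdc20 window, with the CCAAT box nearest the start, and 26 of the Cdk1 window, with the CHR form nearest the start. Cdk1 and Ccnb1, which have both kinds of motif, were not higher or lower by the test, since Cdk1 was too low to be tested and Ccnb1 did not pass. The CHR form of Ccnb1 lies in the 84 bases of its window that are inside the GENCODE gene. The motifs did not overlap each other, and a match of letters is a description of the window only.

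Cyclins and CDK1 were low in AA and DMSO. Ccnb1, the cyclin that drives entry into mitosis, had 1.05, 1.63 and 1.94 CPM in AA and 0.795, 0.578 and 1.63 CPM in DMSO, and the groups overlapped. Its log2 fold change was 0.36 (SE 0.30, adjusted p = 0.378). Cdk1 had 3, 8 and 7 reads in AA and 5, 21 and 2 reads in DMSO, and its partner gene Ccnb2 had 6, 7 and 12 reads in AA and 8, 20 and 8 reads in DMSO. Scaled for depth, Cdk1 averaged 0.392 CPM in AA and 0.336 CPM in DMSO, and Ccnb2 0.569 and 0.493 CPM. Cdc25c, a phosphatase that activates CDK1, had 4, 0 and 0 reads in AA and 0, 5 and 3 reads in DMSO.

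Ccna2, the cyclin of S phase and G2, had 1.88, 2.41 and 3.45 CPM in AA and 0.711, 1.83 and 0.564 CPM in DMSO. The AA libraries lay above the DMSO libraries, by a small margin over DMSO replicate 2. The log2 fold change was 0.84 (SE 0.31), which did not pass (adjusted p = 0.0622), and without DMSO replicate 2 it was 1.11 (adjusted p = 0.0306). Over all alternatives the adjusted p of Ccna2 ran from 0.0306 to 0.179. Exons of Ccna2 share 510 bases with Exosc9 on the opposite strand. The kit keeps strand, but the sources used here do not say whether the counting did. The same holds for Cdc20, Ube2c, Prc1, Nusap1, Kif20a, Cdca8, Sgo2a, Kif4 and Cdc25c, whose exons also overlap a protein-coding gene on the other strand.

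Among the 18 members too low for the test, Ccnf alone had groups that did not overlap, and the other 17 overlapped. It encodes cyclin F, which selects substrates for a ubiquitin ligase in G2 and does not act through a CDK. It had 10, 25 and 24 reads in AA (0.752, 1.40 and 1.72 CPM) and 3, 0 and 0 reads in DMSO (0.126, 0 and 0 CPM). Every AA library lay above every DMSO library, and 2 DMSO libraries had no read, where 3 reads would stand for 0.0964 CPM in replicate 2 and 0.188 CPM in replicate 3. From pooled reads the ratio of AA over DMSO was 31.0, with an exact 95% interval of 10.1 to 155 that covers counting error only. Ccnf would pass a lower filter, of 0.3 CPM in 3 libraries, only through the AA libraries, where it is high, so no test of it is given. Of the 47 members that passed that filter through libraries of both groups, 5 were higher and 2 were lower, beside 19.5% and 7.41% of the 16419 genes then tested, and the call of Spc25 was lost (adjusted p = 0.0529). Ccnf was singled out after its values were seen.

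Of the small CDK subunits, Cks1b passed and Cks2 did not, and the difference between them was not tested. Cks1b, which also helps to mark the inhibitor p27 for destruction, had 3.16, 3.31 and 3.37 CPM in AA and 1.26, 0.578 and 1.504 CPM in DMSO. The groups did not overlap, and the log2 fold change was 1.05 (SE 0.27, adjusted p = 0.0148). The call was lost with library medians equalised (adjusted p = 0.0526), without AA replicate 2 (0.0512) and with a term for the library sets that leaves AA resting on DMSO replicate 3 (0.227); over all alternatives its adjusted p ran from 0.0130 to 0.227. Its paralog Cks2 had 7.67, 11.3 and 8.62 CPM in AA and 9.63, 7.10 and 10.7 CPM in DMSO. The Cks2 libraries of the groups were interleaved (log2 fold change 0.01, SE 0.24, adjusted p = 0.981). Reads can be shared between Cks1b and its retrocopy Cks1brt, so the level of Cks1b is uncertain to that extent. Cdca3, which targets the CDK1 inhibitor WEE1, had a log2 fold change of 0.31 (SE 0.29) and did not pass.

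Of the 7 mitotic kinase genes, 1 was high enough to be tested. Plk1, the polo-like kinase of spindle assembly and mitotic exit, had 2.48, 0.730 and 1.01 CPM in AA and 0.586, 1.67 and 0.940 CPM in DMSO. AA replicate 1 was the highest and the groups overlapped (log2 fold change 0.19, SE 0.34, adjusted p = 0.709). Aurka, the kinase of spindle poles, averaged 0.966 ± 0.358 CPM in AA and 0.829 ± 0.371 CPM in DMSO, and Aurkb, the kinase of the chromosomal passenger complex, 0.951 ± 0.283 and 0.579 ± 0.265 CPM (SD, n = 3 each). The checkpoint kinase genes Bub1 and Ttk had 3 and 8 reads summed over the AA libraries, and 1 and 13 reads summed over the DMSO libraries. Scaled for depth, Bub1 averaged 0.075 CPM in AA and 0.014 CPM in DMSO, and Ttk 0.188 and 0.155 CPM. Bub1b had 24 reads in AA, 0 of them in replicate 1, and 19 in DMSO. Melk had 1, 0 and 0 reads in AA and 9, 6 and 0 reads in DMSO, and the groups overlapped. From pooled reads the ratio was 0.105, with an exact 95% interval of 0.0025 to 0.683. That interval covers counting error only and leaves out the spread between libraries.

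Foxm1, the transcription factor that activates many of these genes in G2, was not tested at the main filter. It had 14, 18 and 8 reads in AA and 3, 19 and 6 reads in DMSO. The levels were 1.05, 1.01 and 0.574 CPM in AA and 0.126, 0.610 and 0.376 CPM in DMSO, and overlapped. At the filter of 0.3 CPM the log2 fold change was 0.46 (SE 0.24, adjusted p = 0.174).

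The 3 chromosomal passenger partners did not pass. Birc5, which encodes survivin, had 1.73, 3.54 and 6.03 CPM in AA and 3.39, 5.27 and 2.82 CPM in DMSO, so that the AA libraries spanned the whole DMSO range. Incenp, the scaffold of the complex, had a log2 fold change of -0.05 (SE 0.26), and Cdca8, which encodes borealin, one of -0.36 (SE 0.30).

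Of 12 kinetochore members 8 were tested, 1 was higher, 1 was lower and 6 did not pass, beside 22.3% higher and 8.66% lower of all tested genes. Cenpe encodes the motor that moves chromosomes to the spindle equator. It had 1.73, 0.730 and 0.359 CPM in AA and 3.85, 4.98 and 5.08 CPM in DMSO, and the highest AA library was below the lowest DMSO library. These levels rest on 23, 13 and 5 reads in AA and on 92, 155 and 81 reads in DMSO. The log2 fold change was -1.59 (SE 0.30, adjusted p = 0.00332). Set against DMSO replicate 3 only, it came to -1.71. Over all alternatives the log2 fold change ran from -2.53 to -0.70 and the adjusted p from 0.00163 to 0.0308.

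Spc25, a subunit of the NDC80 complex that grips microtubules, had 8.04, 11.7 and 8.26 CPM in AA and 7.16, 3.501 and 4.26 CPM in DMSO. The groups did not overlap, although DMSO replicate 1 came close to the AA libraries (log2 fold change 0.82, SE 0.28, adjusted p = 0.0429). The call was lost in 11 of 16 alternatives, among them leaving out any AA library or DMSO replicate 2 or 3 (adjusted p of 0.0603 to 0.161), and over all alternatives the adjusted p ran from 0.0195 to 0.164. Its partners in the same complex did not pass, and the difference from Spc25 was not tested. Spc24 had 3.68, 5.11 and 6.18 CPM in AA and 3.43, 3.53 and 5.39 CPM in DMSO (log2 fold change 0.23, SE 0.27, adjusted p = 0.547), and Nuf2 had a log2 fold change of 0.35 (SE 0.35). Ndc80 itself had 15 reads in AA and 21 in DMSO, or means of 0.318 and 0.267 CPM once scaled for depth.

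Cenpf, a large protein of the outer kinetochore, had 1.88, 1.80 and 1.87 CPM in AA and 3.05, 3.82 and 1.88 CPM in DMSO. The AA libraries lay below the DMSO libraries, but DMSO replicate 3 was almost level with AA replicate 1, and the gene did not pass (log2 fold change -0.43, SE 0.27, adjusted p = 0.251). Cenpa, the histone variant that marks centromeres, had 2.63, 1.63 and 1.72 CPM in AA and 0.544, 0.803 and 1.44 CPM in DMSO. AA was above DMSO in every library, yet the gene did not pass (log2 fold change 0.64, SE 0.29, adjusted p = 0.112). Mad2l1, the spindle checkpoint protein MAD2, averaged 7.21 ± 2.02 CPM in AA and 8.94 ± 1.43 CPM in DMSO (SD, n = 3 each), and Knl1, the scaffold that recruits the checkpoint, averaged 2.42 ± 0.802 and 2.46 ± 0.374 CPM. The 2 shugoshin genes, which protect cohesion at centromeres, and Cenpn, a reader of CENP-A nucleosomes, were too low for the test. Sgo1 had 27 reads in AA and 16 in DMSO, Sgo2a 2 and 15, and Cenpn 30 and 56.

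Among the kinesin genes, Kif20b had the most reads and was lower in AA. It encodes MPP1, a motor of late cytokinesis, and had 33.1, 17.6 and 26.0 CPM in AA and 54.5, 51.0 and 55.4 CPM in DMSO. Every AA library lay well below the DMSO libraries, which were close together. Reads numbered 440, 313 and 362 in AA and 1303, 1588 and 884 in DMSO, so counting error was small. The log2 fold change was -1.08 (SE 0.21, adjusted p = 0.00326). Set against DMSO replicate 3 only, it came to -1.13, and it ran from -1.34 to -0.85 over all alternatives, with adjusted p from 0.00192 to 0.0326. Per kilobase of exon, Kif20b stood at 3.67 CPM per kb in AA and 7.71 CPM per kb in DMSO. In DMSO this level per length was second among the members, between Cks2 at 13.2 and Pttg1 at 7.11 CPM per kb.

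Kif23, a motor of the central spindle, had 2.03, 2.36 and 2.23 CPM in AA and 0.921, 1.25 and 0.439 CPM in DMSO. The groups did not overlap (log2 fold change 0.80, SE 0.28, adjusted p = 0.0471), but the call was lost in 14 of 16 alternatives. These include leaving out DMSO replicate 1 or 3 or any AA library (adjusted p of 0.0770 to 0.146), and over all alternatives the adjusted p ran from 0.0378 to 0.157. Racgap1, whose product binds the KIF23 protein in the centralspindlin complex, had a log2 fold change of -0.25 (SE 0.30) and did not pass. Kif20a, a passenger complex motor, had 2.10, 2.69 and 1.87 CPM in AA and 1.38, 1.93 and 1.82 CPM in DMSO, with overlap (log2 fold change 0.25, SE 0.26, adjusted p = 0.490). Kif11, the motor that separates spindle poles, had a log2 fold change of -0.19 (SE 0.28) and Kif22, a chromosome arm motor, one of 0.43 (SE 0.36). Kif4, Kif15 and Kif2c, which act in chromosome structure, spindle separation and microtubule ends, were not tested, with 21, 27 and 32 reads in AA and 12, 51 and 42 reads in DMSO. Scaled for depth, their means were 0.500, 0.623 and 0.671 CPM in AA and 0.168, 0.690 and 0.716 CPM in DMSO.

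Aspm had the largest positive fold change among the 36 tested members. It organises microtubules at spindle poles. It had 4.66, 3.70 and 7.32 CPM in AA and 1.30, 1.03 and 0.752 CPM in DMSO, and the lowest AA library was well above the highest DMSO library. Reads numbered 62, 66 and 102 in AA and 31, 32 and 12 in DMSO. The log2 fold change was 1.59 (SE 0.29, adjusted p = 0.00249). Set against DMSO replicate 3 only, it came to 1.79, and it ran from 0.75 to 2.24 over all alternatives with adjusted p from 0.00264 to 0.0188.

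The other 4 spindle assembly genes did not pass. Hmmr, a microtubule binding partner of TPX2, had 6.46, 9.60 and 12.4 CPM in AA and 5.90, 7.001 and 5.95 CPM in DMSO, with AA replicate 1 inside the DMSO range (log2 fold change 0.49, SE 0.25, adjusted p = 0.163). Prc1, which bundles the central spindle, had 4.36, 3.48 and 3.16 CPM in AA and 0.795, 2.76 and 3.63 CPM in DMSO, and the low value of DMSO replicate 1 carried most of the difference (log2 fold change 0.56, SE 0.35; 0.00 against DMSO replicate 3). Nusap1, a microtubule stabiliser, had a log2 fold change of 0.23 (SE 0.27) and Tpx2, the activator of Aurora A, one of -0.36 (SE 0.32).

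The 3 cytokinesis genes, which include Racgap1, did not pass. Ect2, which activates the small GTPase RhoA at the cleavage furrow, had 8.72, 11.2 and 11.99 CPM in AA and 15.7, 10.7 and 15.4 CPM in DMSO. DMSO replicate 2 lay within the AA range (log2 fold change -0.35, SE 0.22, adjusted p = 0.245). Anln, a furrow scaffold, had a log2 fold change of 0.07 (SE 0.27).

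Of the 3 genes of mitotic exit, 2 were higher in AA, beside 22.3% of all tested genes, and both calls were lost in some alternatives. Pttg1 encodes securin, the inhibitor of separase. It had 22.0, 24.5 and 26.1 CPM in AA and 11.6, 16.9 and 14.2 CPM in DMSO, on 226 to 525 reads per library, and the groups did not overlap (log2 fold change 0.74, SE 0.19, adjusted p = 0.0141). The call was lost with library medians equalised (0.0534), without AA replicate 2 (0.0507), without AA replicate 3 (0.0568) and with the library-set term (0.122); over all alternatives the adjusted p ran from 0.0121 to 0.122. Cdc20, an activator of the anaphase promoting complex, had 2.25, 1.68 and 3.23 CPM in AA and 0.837, 1.41 and 0.188 CPM in DMSO. Its groups did not overlap (log2 fold change 0.94, SE 0.33, adjusted p = 0.0494), but the call was lost in 13 of 16 alternatives. These include leaving out DMSO replicate 1 or 3 or any AA library (adjusted p of 0.0675 to 0.152), and over all alternatives the adjusted p ran from 0.0344 to 0.152. Exons of Cdc20 share 53 bases with Elovl1 on the opposite strand. Ube2c, the ubiquitin conjugating enzyme of the same complex, had 4.21, 1.52 and 4.24 CPM in AA and 1.59, 2.76 and 2.63 CPM in DMSO, and AA replicate 2 was the lowest of all 6 libraries (log2 fold change 0.32, SE 0.33, adjusted p = 0.492).

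**Figure D3:**
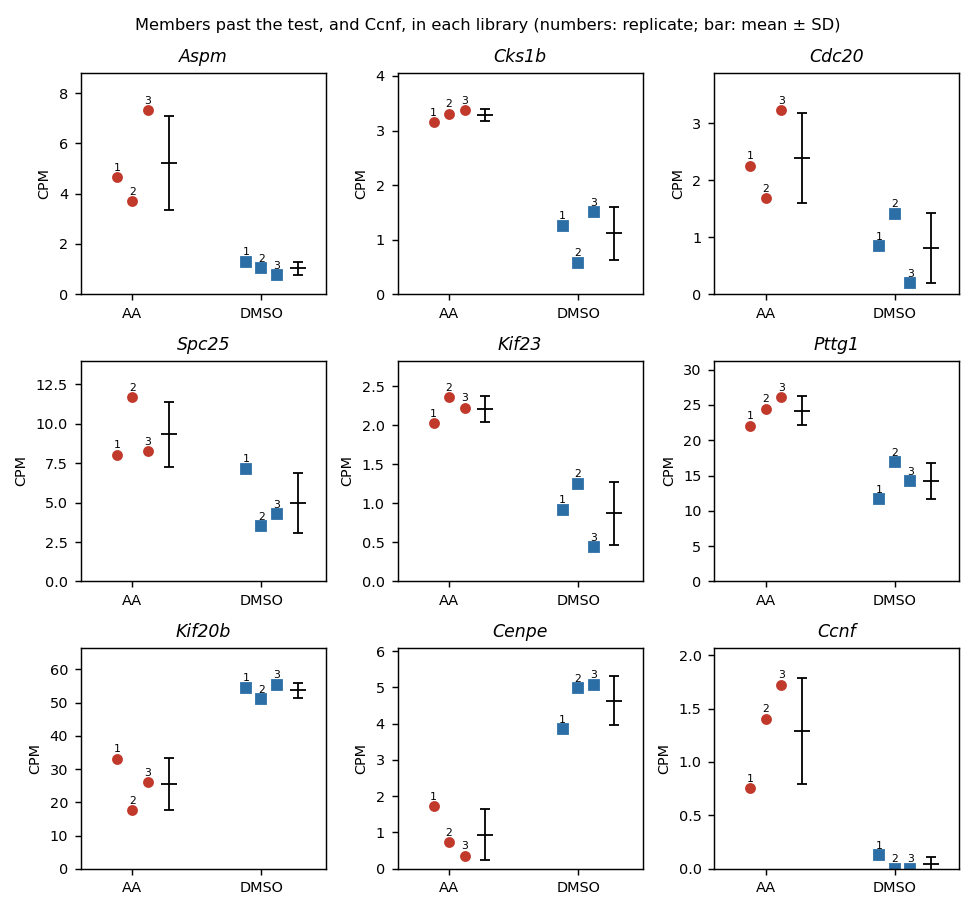
CPM of the 8 genes that passed the test and of Ccnf in each library, AA at left and DMSO at right on linear axes from 0, with replicate numbers and mean ± SD over 3 libraries. In each panel the groups do not overlap, by a wide margin for Aspm, Cenpe and Kif20b and by a narrow one for Spc25 and Cdc20.

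The general markers of cycling cells did not pass. Mki67, whose product Ki-67 coats mitotic chromosomes, had 4.51, 1.63 and 2.15 CPM in AA and 1.63, 2.63 and 1.82 CPM in DMSO. AA replicate 1 alone was above the DMSO range, and without it the log2 fold change was -0.06 (adjusted p = 0.905), against 0.25 with all libraries (SE 0.32, adjusted p = 0.573). Top2a, the topoisomerase that untangles chromosomes, had 1.95, 3.20 and 3.23 CPM in AA and 4.02, 8.06 and 2.44 CPM in DMSO. DMSO replicate 2 was the highest and DMSO replicate 3 lay within the AA range, and the log2 fold change was -0.53 (SE 0.35, adjusted p = 0.271). Cdca2, which brings a phosphatase to chromatin, had a log2 fold change of 0.35 (SE 0.27).

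Taking the members as a sum shows how much Kif20b weighs. All 54 members added up to 168, 167 and 194 CPM in AA and to 169, 183 and 180 CPM in DMSO. Without Kif20b the other 53 added up to 135, 149 and 168 CPM in AA and 115, 132 and 124 CPM in DMSO, and the groups did not overlap. With the libraries rescaled by TMM (trimmed mean of M values) factors, these 53 came to 132, 134 and 152 CPM in AA and to 130, 137 and 132 CPM in DMSO, and the groups overlapped. Rescaled in the same way, all 54 came to 164, 150 and 176 CPM in AA and to 192, 190 and 190 CPM in DMSO, so that AA lay below DMSO without overlap. Whether either sum separates the groups thus depends on the scaling of the libraries and on Kif20b. Of the 36 tested members, 18 were highest within the AA group in replicate 3, against 9 each in replicates 1 and 2. Within the DMSO group 18 were highest in replicate 2, 15 in replicate 3 and 3 in replicate 1.

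**Figure D4:**
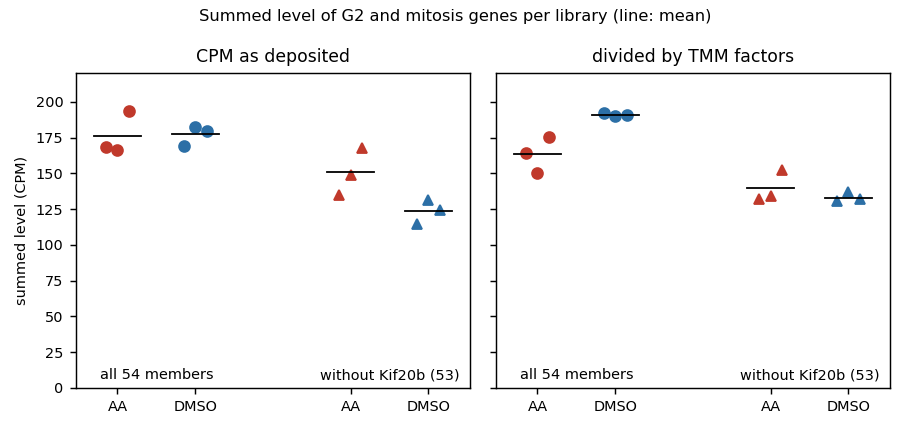
Summed level of the members in each library, as deposited (left panel) and divided by TMM factors (right panel), with and without Kif20b; lines are group means. Without Kif20b, AA lies at 135 to 168 CPM and DMSO at 115 to 132 CPM as deposited, and these groups overlap after rescaling, where all 54 members lie at 150 to 176 CPM in AA and 190 to 192 CPM in DMSO.

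Gene length varied widely among the members and, over the 36 tested members, went with the fold changes. Of the 36 tested members, 5 span more than 50 kb of genome (GENCODE M21): Cenpe (61.1 kb), Knl1 (58.4 kb), Anln (57.2 kb), Ect2 (56.7 kb) and Kif20b (53.4 kb). The genes that were higher in AA span 2.91 to 39.3 kb. Spearman's rho of fold change (log2) on genomic length was -0.495 over the 36 members, and -0.409 over the 34 members other than Cenpe and Kif20b. It is given as a description, since all members were measured in the same 6 libraries, and it was not computed over all tested genes. Kif4 (101 kb), Kif15 (67.7 kb) and Melk (63.8 kb) are longer still but were too low for the test. Kif4 averaged 0.500 CPM in AA and 0.168 CPM in DMSO, Kif15 0.623 and 0.690 CPM, and Melk 0.025 and 0.190 CPM. The groups overlapped for each of them. Knl1, Anln and Ect2 are about as long as Cenpe and Kif20b and did not pass, with log2 fold changes of -0.03, 0.07 and -0.35.

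Several genes that restrain entry into mitosis had larger fold changes than any tested member. The list tested 13 genes, but 2 of them, Cdc25a and Cdc25b, encode CDK-activating phosphatases on which the restraints act. Of the other 11, 7 were higher and 4 did not pass, beside 22.3% of all tested genes called higher, with a median log2 fold change of 2.04 against 0.21 for all genes. The 7 and this median include Gtse1, whose place as a restraint is not settled and which raises both. They also include Gadd45b and Rprm. Gtse1, Gadd45b and Rprm reached 1 CPM in no DMSO library and passed the filter only through the AA libraries, where they are high. The count and the median are therefore a description of the list and no support. Cdc25a was higher too (0.85, SE 0.20, adjusted p = 0.00935), and Cdc25b did not pass (0.37, SE 0.29). Cdkn1a, which encodes p21, had 192, 276 and 279 CPM in AA and 3.26, 0.867 and 0.877 CPM in DMSO (log2 fold change 6.64, SE 0.30, adjusted p = 8.87e-07). Gtse1, a G2 and S phase protein that binds p53, had 31.3, 37.4 and 43.4 CPM in AA and 0.418, 0.996 and 0.313 CPM in DMSO. Its log2 fold change was 4.62, and no test of it is given because of the way it passed the filter. Ccng1, the p53-induced cyclin G1, had a log2 fold change of 2.61 (SE 0.15) and Sfn, the 14-3-3 protein that holds CDK1 in the cytoplasm, one of 3.87 (SE 0.27). The checkpoint kinases and WEE1 did not pass, with log2 fold changes of 0.05 for Chek1, -0.37 for Chek2 and 0.05 for Wee1.

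Among 19 tested mitotic genes outside the 54, the test called 7 higher and 2 lower and left 10 uncalled, beside 22.3% and 8.66% of all genes. With library medians equalised 6 were higher and 4 lower, beside 11.2% and 16.9% of all genes. With the library-set term 4 were higher and 0 lower. Their median log2 fold change was 0.17. Gtse1 is on this list too. Each count of higher genes includes Gtse1 and Ckap2, which reached 1 CPM in no DMSO library. They passed the filter only through the AA libraries, where they are high, so their calls are no support and no test of them is given. Ckap2, a spindle microtubule protein, had 11.9, 21.3 and 17.4 CPM in AA and 0.377, 0.514 and 0.251 CPM in DMSO (log2 fold change 3.66). Kifc1, the minus-end motor that focuses spindle poles, had 10.52, 13.1 and 15.2 CPM in AA and 1.17, 2.25 and 1.94 CPM in DMSO (log2 fold change 2.33, SE 0.26, adjusted p = 0.000132); it has the near copy Kifc5b, with which reads can be shared. Psrc1, a spindle protein, had 10.1, 11.3 and 11.7 CPM in AA and 1.26, 1.64 and 1.75 CPM in DMSO (log2 fold change 2.24, SE 0.23, adjusted p = 8.86e-05). For Gtse1, Ckap2, Kifc1 and Psrc1 every AA library stood above every DMSO library. Kifc1 and Psrc1 were called in all 16 alternatives. The lower genes, named after their values were seen, were Haspin (listed as Gsg2; log2 fold change -1.11, SE 0.31), a mitotic histone kinase, and Depdc1b (-0.64, SE 0.21). Neither passed once the library-set term was added, where adjusted p was 0.254 for Haspin and 0.292 for Depdc1b.

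In the list of the DREAM, MuvB and MYB factors that act on these promoters, 1 of 13 tested genes was higher and 12 did not pass. Of all tested genes 22.3% were higher and 8.66% lower. The higher gene was Mybl1, which encodes A-MYB, with 20.3, 26.7 and 29.6 CPM in AA and 1.76, 0.835 and 3.01 CPM in DMSO (log2 fold change 3.27, SE 0.30, adjusted p = 4.13e-05). Mybl2, the B-MYB gene usual in cycling cells, averaged 3.19 ± 1.15 CPM in AA and 3.69 ± 1.85 CPM in DMSO (SD, n = 3 each; log2 fold change -0.10, adjusted p = 0.854). The median of the list was 0.08. Equalising library medians gave 1 higher and 3 lower calls in the list, beside 11.2% and 16.9% of all genes.

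**Figure D5:**
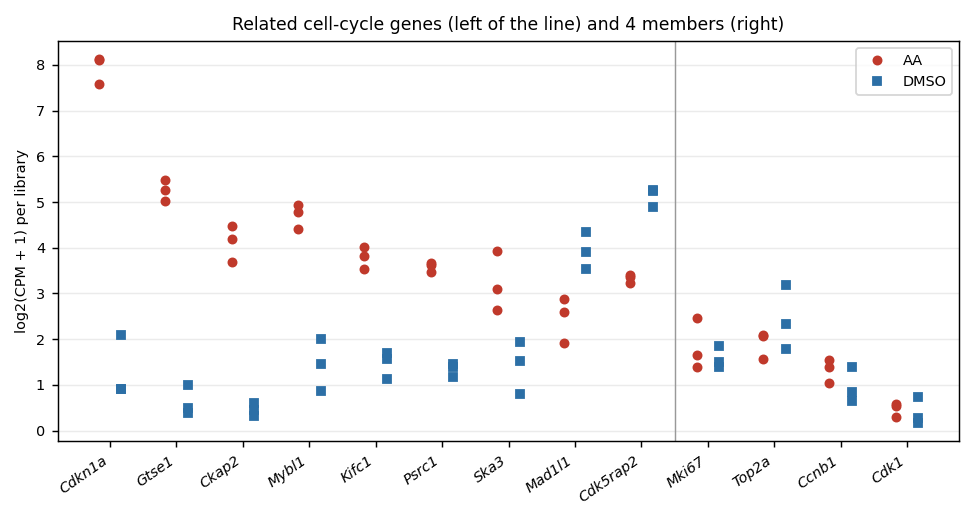
Level in each library, as log2(CPM + 1), of 9 related cell cycle genes and 4 members, with AA as circles at left and DMSO as squares at right of each gene. Cdkn1a, Gtse1, Ckap2, Mybl1, Kifc1 and Psrc1 are far apart between groups, while Mki67, Top2a, Ccnb1 and Cdk1 overlap. The 9 shown were picked among called genes, and the 4 members are uncalled or untested, so the contrast follows from the choice. Members that stand apart, such as Aspm, Cenpe and Kif20b, are not shown here.

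Complexes of the mitotic apparatus that resting cells also use are given here beside the 30.9% of all tested genes that were called in either direction. Of 17 tested genes of the anaphase promoting complex, 1 was higher, the subunit gene Anapc11 (log2 fold change 0.62, adjusted p = 0.0243), and 16 did not pass. Of 12 cohesin genes 1 was higher, the acetyltransferase gene Esco1 (0.81, adjusted p = 0.0153), and 11 did not pass. Both calls were lost with library medians equalised (adjusted p = 0.123 for Anapc11 and 0.0848 for Esco1); over all alternatives the adjusted p ran from 0.0184 to 0.123 for Anapc11 and from 0.00161 to 0.407 for Esco1. With library medians equalised 1 cohesin gene, Stag1, was lower (adjusted p = 0.0274, against 0.178 as deposited). Of 7 condensin genes 0 were called by limma and 0 by voom, 3 had an unadjusted p under 0.05, and 1 was lower with library medians equalised. The medians of these 3 lists were 0.21, 0.17 and 0.05.

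Centromere and centrosome lists held calls in both directions. Of 21 tested genes of the inner centromere and of the kinetochore outside the 54, 4 were higher, 3 lower and the remaining 14 uncalled (median log2 fold change 0.16), beside 22.3% and 8.66% of all genes. The balance depended on the scaling, with 1 higher and 6 lower when library medians were equalised, beside 11.2% and 16.9% of all genes. With the library-set term there was 1 each way. Zwint, a kinetochore partner of KNL1, had 117, 134 and 119 CPM in AA and 70.3, 79.5 and 71.1 CPM in DMSO (log2 fold change 0.74, SE 0.13, adjusted p = 0.00215). Mad1l1, which anchors MAD2 at unattached kinetochores, had 6.31, 5.05 and 2.80 CPM in AA and 10.6, 19.2 and 14.1 CPM in DMSO (log2 fold change -1.46, SE 0.30, adjusted p = 0.00436). Bub3 (0.63, SE 0.16) and Cenpt (0.83, SE 0.27) were also higher, and both calls were lost with library medians equalised (adjusted p = 0.0822 and 0.108). Over all alternatives the adjusted p ran from 0.0123 to 0.231 for Bub3 and from 0.0330 to 0.254 for Cenpt. Of 12 centrosome genes 2 were higher, 1 lower and 9 uncalled (median 0.14). Cdk5rap2, which recruits gamma tubulin, had 8.34, 9.60 and 9.26 CPM in AA and 37.1, 37.7 and 28.8 CPM in DMSO (log2 fold change -1.81, SE 0.18, adjusted p = 8.45e-05). The centrosome genes Nedd1 (0.73, SE 0.18) and Cep192 (0.53, SE 0.17) were higher, with adjusted p of 0.0787 and 0.236 when library medians were equalised; over all alternatives it ran from 0.0105 to 0.181 for Nedd1 and from 0.0258 to 0.347 for Cep192.

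Markers of some other cell types also moved between the groups, and the counts of higher markers stand beside 22.3% of all tested genes. Summed over 4 markers of fibroblasts and pericytes, AA libraries held 106 to 124 CPM and DMSO libraries 52.2 to 74.9 CPM, and 3 of the 4 were higher in AA. The 4 markers of principal cells summed to 48.4 to 90.8 CPM in AA and 15.4 to 32.3 CPM in DMSO, with 2 of 4 higher. For 6 endothelial markers the sums were 235 to 265 CPM in AA and 154 to 226 CPM in DMSO, with 2 of 6 higher. For 6 macrophage markers they were 156 to 215 CPM in AA and 171 to 263 CPM in DMSO, with 3 of 6 higher. Csf1r made up most of this sum and averaged 144 CPM in AA and 205 CPM in DMSO, without passing. Cd68, 1 of the 3 higher markers, averaged 28.4 CPM in AA and 0.933 CPM in DMSO. The 5 leukocyte markers summed to at most 18.8 CPM in AA and at most 12.4 CPM in DMSO, with 1 of 3 tested markers higher. That marker, Cd79a, reached 1 CPM in no DMSO library and passed the filter only through AA, where it is high, so its call is no support. Cd3e was at 0 in DMSO replicate 1 and S100a8 was at 0 in 5 of the 6 libraries. The 4 thick ascending limb markers summed to 292 to 1237 CPM in AA and 158 to 457 CPM in DMSO, with 1 of 4 higher. Of 4 intercalated cell markers 1 was higher. Of 3 podocyte markers 0 were called, and the 1 tested marker of the distal convoluted tubule did not pass. With library medians equalised, 2 markers each of fibroblasts and pericytes, principal cells and macrophages were higher, beside 11.2% of all genes. Endothelium, leukocytes and thick ascending limb then had 1 each, and 1 macrophage marker was lower. With the library-set term 3 were higher for thick ascending limb, 2 for principal cells and 1 each for endothelium, macrophages and podocytes. Fibroblasts and pericytes, leukocytes and intercalated cells then had 0. The part of other cell types in the values above was not tested.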

How the data were processed

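RNA was measured in 3 AA and 3 DMSO libraries, prepared with a stranded mRNA kit per the labels' protocols. The deposited values are log10(CPM + 1), read from the values themselves; bcl2fastq 2.19, kallisto and the mm10 build are named in the submitters' processing notes. The values were turned back into CPM, and whole reads were recovered for 100% of them (tolerance 0.1 read). Library totals of 13304877 to 31136251 reads limit the precision of low genes, and intervals cover counting error only. Genes with at least 1 CPM in 3 libraries were tested with limma 3.58.1 (R 4.3.3) on log2(CPM + 1), with a mean-variance trend and Benjamini-Hochberg adjustment over 14311 genes. A fold change is AA over DMSO on that scale and understates low genes. The script was tested on simulated data. The sample labels give the groups. The alternatives changed scaling, filter, pseudocount, terms and libraries; the filter of 0.3 CPM combined with voom was chosen after seeing the data. The members and lists were chosen with earlier results of these data known. Genes named are all called members, tested members averaging at least 2 CPM in a group, core mitotic genes, and in other lists up to 4 called genes of smallest adjusted p; others were added for their role or values. Promoters are from RefSeq, gene spans from GENCODE M21.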

Additional observations from a re-analysis of the deposited data

How the results depend on the processing

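Across 16 alternatives, Aspm, Cenpe and Kif20b were called each time and the count of lower members was always 2. The count of higher members was 3 with TMM factors, 1 with library medians equalised, and 2 with a library-set term, and ran from 1 to 6 when a single library was left out. Over all tested genes the calls numbered 1481 with the library-set term and 2645 to 3980 without a single library. The labels number replicates in both groups, but same-numbered libraries did not deviate together (correlations of -0.109, -0.156 and -0.0151), and no library correlated best with its own number. With a replicate block 3 members were higher. Uncalled genes changed sign. With the library-set term the log2 fold change was -0.066 for Ccnb1, -0.21 for Cks2, 0.21 for Birc5, -0.12 for Spc24 and 0.12 for Top2a. With library medians equalised it was -0.25 for Cks2, -0.074 for Plk1, -0.034 for Spc24, -0.011 for Kif20a, -0.033 for Nusap1 and -0.0057 for Mki67, and with TMM factors -0.19 for Cks2. Leaving out single libraries gave -0.14 to 0.12 for Cks2, -0.12 to 0.39 for Plk1, -0.42 to 0.26 for Birc5, -0.25 to 0.067 for Incenp, -0.21 to 0.11 for Knl1, -0.44 to 0.032 for Racgap1 and -0.058 to 0.48 for Mki67. The cause was not tested. Depth limits the 18 untested members most, since 1 read is worth up to 0.0752 CPM.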
